A study of Mus musculus with 20 samples.

Results

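The cytochrome P450 genes described here were the rows of the count table whose symbol reads Cyp, a family number, a subfamily letter and a gene number, without the vitamin D genes Cyp27b1, Cyp24a1 and Cyp2r1. Of 25638 genes in the table, 94 symbols had this form and 91 were kept, in 15 families. The symbols Cyp4a12a, Cyp4a12b, Cyp3a41a, Cyp3a41b, Cyp4a30b and Cyp51 have another form and were not analysed here. In all, 45 of the 91 genes had enough reads to be tested, and 46 did not. Of those 46, 12 had no read in any library and none exceeded 1.02 CPM, the count scaled to library size.

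Cytochrome P450 enzymes are heme proteins that insert an oxygen atom into fatty acids, sterols, steroids, retinoids and foreign compounds, with electrons passed to them by reductase partners. In the kidney they sit mostly in the proximal tubule, where Cyp4a and Cyp2j enzymes turn arachidonic acid into hydroxylated and epoxidised lipids that act on vessels and salt transport. Many of their genes are switched on by ligand-activated receptors such as PPARα, the aryl hydrocarbon receptor (AHR) and the xenobiotic receptors CAR and PXR, and several in mouse kidney depend on androgen.

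Polyadenylated mRNA of whole kidneys was sequenced from 20 male C57BL/6J mice, wild type, aged 6 to 8 weeks and weighing 18 to 22 g, with 5 mice in each of 4 groups. In the 7-HCG 15 mg/kg and 7-HCG 30 mg/kg groups, mice were given 7-hydroxycoumarin-β-D-glucuronide (7-HCG), the glucuronide of a plant coumarin, by mouth once a day for 5 days at that dose, and cisplatin, 10 mg/kg into the peritoneum, on day 3. Cisplatin is a platinum anticancer drug that injures the proximal tubule. The cisplatin group had buffered saline by mouth in place of 7-HCG and the same cisplatin injection, and the control group had buffered saline by mouth and a saline injection. All kidneys were taken 72 h after the injection. No group had 7-HCG without cisplatin, so an action of 7-HCG on these genes in uninjured kidney cannot be told apart from its action on the injury. With 1 whole kidney per library, fewer cells of a type and less RNA per cell cannot be told apart in any result below.

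Libraries held between 10714532 and 49602115 counts, at which 3 counts are worth 0.0605 to 0.280 CPM. Mitochondrially encoded mRNAs took 3.04 to 7.38% of counts in 7-HCG 15 mg/kg, 5.12 to 8.01% in 7-HCG 30 mg/kg, 16.6 to 77.7% in cisplatin and 24.6 to 45.5% in control libraries. Cisplatin replicates 9 and 10 stood apart at 77.7% and 70.6%, with scaling factors of 0.38 and 0.43 against 0.91 to 1.40 in the other libraries. Control replicates 2 and 5 held the most mRNA of 7 adipose marker genes, 536 and 2362 CPM in sum, against 31.3 to 272 CPM in all the other libraries of the 4 groups. The calls that ended without either pair of libraries are named with the counts of each comparison. Levels below are CPM with edgeR's TMM scaling, and a change is a log2 fold change of the first-named group over the second, ± its standard error, while ± after a level is the SD of 5 kidneys. A gene rose or fell where edgeR's quasi-likelihood test, adjusted by Benjamini-Hochberg over 14858 tested genes, gave p below 0.05. The alternative settings counted below leave out a fit with the replicate number as a block. Its calls in the comparisons that include the cisplatin group are given in the closing section.

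Few genes carried most of the P450 mRNA. On CPM per kilobase of exon, averaged over the 20 libraries, Cyp4a10 led at 535, followed by Cyp4b1 at 343, Cyp4a14 at 306, Cyp2e1 at 270, Cyp2j5 at 255 and Cyp4a31 at 194. These 6 genes made up 75.7% of the level per kilobase summed over the 91 genes, and the first 10 made up 90.7%. The order differed between groups. Per kilobase, Cyp4a14 had 44.1 CPM in control and 517 CPM in 7-HCG 30 mg/kg kidneys, and Cyp4b1 had 79.6 CPM in cisplatin and 609 CPM in 7-HCG 30 mg/kg kidneys. Families 2 and 4 held 22 and 12 of the 45 tested genes. By contrast, 1 of 7 Cyp3a genes, 1 of 5 Cyp2b genes and 2 of 15 Cyp2c genes, subfamilies that are abundant in liver, could be tested. The 3 steroidogenic genes of family 11, and the single genes of families 8, 19 and 21, could not. Cyp11b1, the adrenal enzyme of the last step to corticosterone, had 5 reads in control replicate 2 and none elsewhere. That library also had the highest sum of 5 adrenal medulla markers, 2.10 CPM against at most 0.664 CPM in any other. The part of adrenal tissue in these reads was not tested.

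Summed over the 91 genes, P450 mRNA was 7658 ± 1223 CPM in 7-HCG 15 mg/kg, 8259 ± 845 CPM in 7-HCG 30 mg/kg, 4001 ± 1660 CPM in cisplatin and 3334 ± 1314 CPM in control kidneys (SD, n = 5 each). The 10 7-HCG kidneys, at 6509 to 9265 CPM, all lay above the 5 cisplatin kidneys at 2190 to 5569 CPM and the 5 control kidneys at 1818 to 5148 CPM. Scaled on library totals alone, the sums were 7923 ± 328 CPM in 7-HCG 15 mg/kg, 9279 ± 674 CPM in 7-HCG 30 mg/kg, 4029 ± 2881 CPM in cisplatin and 3573 ± 1040 CPM in control kidneys, and the 7-HCG kidneys (7468 to 10231 CPM) again lay above the cisplatin (837 to 6605 CPM) and control kidneys (2542 to 5013 CPM). These totals include the mitochondrial mRNAs, at most 8.01% of counts in 7-HCG, 16.6 to 77.7% in cisplatin and 24.6 to 45.5% in control libraries. A larger mitochondrial share lowers the sum on this scale, and sums on totals without these mRNAs were not computed. Summed mRNA of 8 proximal tubule markers was also higher in every 7-HCG kidney than in every cisplatin kidney and overlapped with control. It was 3854 to 7666 CPM in 7-HCG 15 mg/kg, 3684 to 11458 CPM in 7-HCG 30 mg/kg, 1626 to 3571 CPM in cisplatin and 1943 to 5444 CPM in control kidneys. Slc34a1, the largest of the 8, overlapped by itself (1113 CPM in 15 mg/kg replicate 2, 2574 CPM in cisplatin replicate 10). In the same order of groups, 6 markers of the S3 part of the proximal tubule summed to 355 to 1093, 399 to 1187, 90.9 to 327 and 361 to 1103 CPM. The part of these cells in the P450 sums was not tested.

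Against cisplatin alone, both 7-HCG doses had more mRNA of Cyp4b1, Cyp2e1, Cyp2d26 and some Cyp2j genes and less of other Cyp2j genes, while Cyp4a10, Cyp4a14 and Cyp4a31, among the most abundant P450 genes, were not called. In 7-HCG 15 mg/kg, 11 of the 45 tested genes rose and 4 fell, which is 33.3% called against 37.5% of all tested genes, of which 18.9% rose and 18.6% fell. In 7-HCG 30 mg/kg, 10 rose and 5 fell, again 33.3%, against 27.9% of all tested genes, of which 14.7% rose and 13.2% fell. These shares are near the background, so the count by itself sets the P450 genes apart in neither comparison. The median change was 0.23 at 15 mg/kg and 0.24 at 30 mg/kg for the tested P450 genes, beside −0.05 and 0.00 over all tested genes. The 2 comparisons share their cisplatin kidneys. Cyp2d12, Cyp2d26, Cyp2e1, Cyp2j5, Cyp2j11, Cyp2j13, Cyp4a32, Cyp4b1 and Cyp4f14 rose in both, and Cyp1b1, Cyp2j8 and Cyp2j9 fell in both. Without cisplatin replicates 9 and 10, the calls of Cyp1b1, Cyp26b1, Cyp2a4, Cyp2d9 and Cyp2j5 ended at 15 mg/kg, and those of Cyp1b1, Cyp2a5, Cyp2d12, Cyp2j5, Cyp2j7 and Cyp2j8 at 30 mg/kg.

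Between the doses, edgeR called 0 of the 45 genes, as it called 0% of all 14858 tested genes, and DESeq2 and limma voom also called 0. At an unadjusted p below 0.05, 0 of the 45 genes and 1066 of all tested genes differed between 30 and 15 mg/kg. The median change of 30 mg/kg over 15 mg/kg was 0.04, and Cyp2e1 and Cyp4b1 changed by 0.58 ± 0.36 and 0.40 ± 0.45. A miss of the threshold does not show that the doses act alike.

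**Figure D1:**
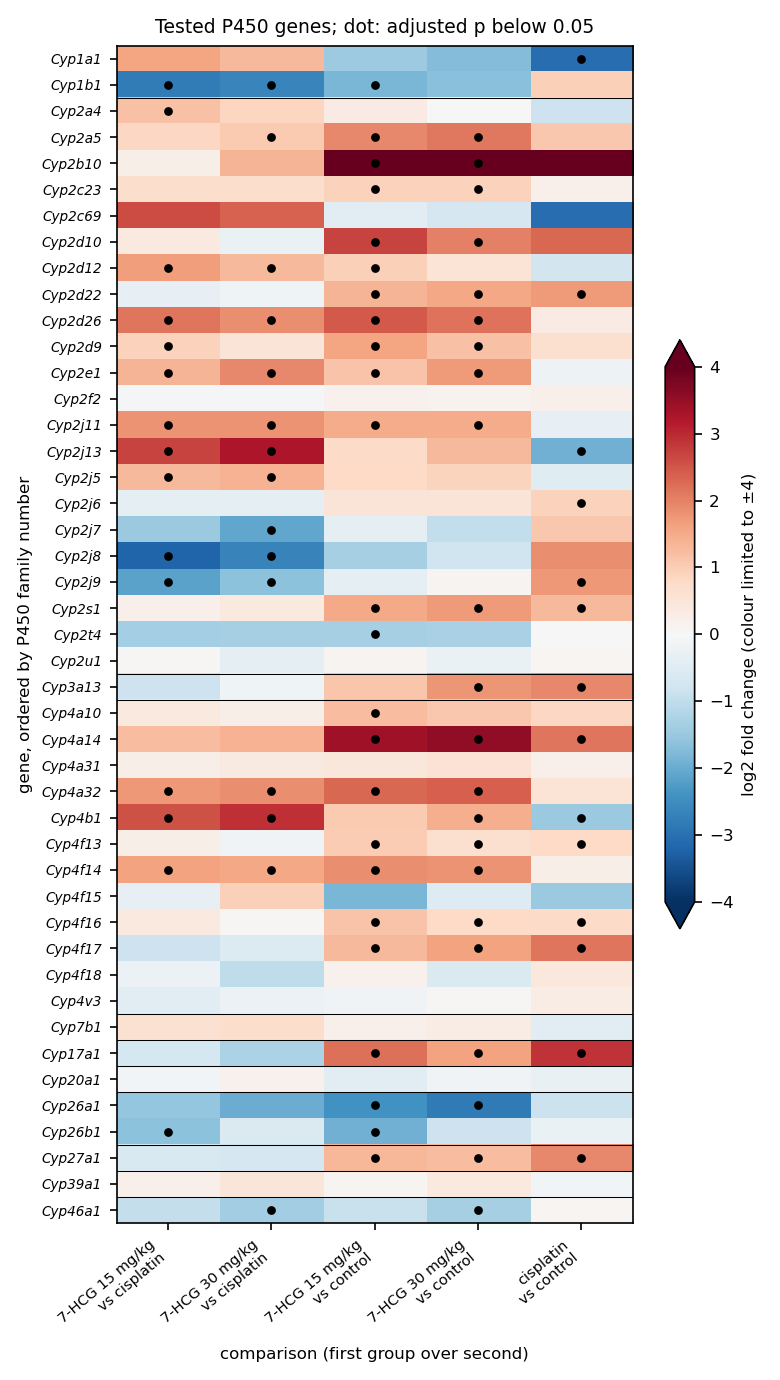
Log2 fold changes of the 45 tested P450 genes (rows, by family number) in 5 comparisons (columns, first group over second), with a black dot where edgeR's adjusted p was below 0.05. The 9 genes that rose and the 3 that fell with both 7-HCG doses against cisplatin stand out in the first 2 columns. Cyp2b10 had no read in any control kidney, so its fitted values over control are not estimates of a fold.

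The genes of family 4 add a hydroxyl group to the end of fatty acid chains. Cyp4a14, Cyp4a10, Cyp4a31, Cyp4a32 and Cyp4b1 lie side by side on chromosome 4 between 115486200 and 115647723 (GRCm38). Cyp4b1 had 1249, 481, 1621, 1014 and 829.9 CPM in 7-HCG 15 mg/kg kidneys, 2934, 1106, 894, 1162 and 771 CPM in 7-HCG 30 mg/kg kidneys, 214, 247, 229, 82.6 and 125 CPM in cisplatin kidneys, and 191, 424, 214, 869.9 and 802 CPM in control kidneys. Each of the 10 7-HCG kidneys lay above each of the 5 cisplatin kidneys, while they overlapped with control. Cyp4b1, known for turning plant and fungal toxins into reactive products, rose by 2.53 ± 0.48 (edgeR adjusted p = 0.000668) at 15 mg/kg and by 2.93 ± 0.49 (edgeR adjusted p = 0.000694) at 30 mg/kg over cisplatin. It rose by 1.46 ± 0.46 (edgeR adjusted p = 0.0198) at 30 mg/kg over control, where 1.05 ± 0.46 at 15 mg/kg missed the threshold, and it fell by 1.48 ± 0.46 in cisplatin against control (edgeR adjusted p = 0.0376).

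Both rises of Cyp4b1 over cisplatin kept their call in all 30 alternative settings other than the replicate block. Its call over control at 30 mg/kg ended in 6 of them, among them without control replicate 1 (1.25), control replicate 5 (1.27) or replicate 1 of that dose (0.98). The fall in cisplatin against control was −1.14 without cisplatin replicates 9 and 10 and missed the threshold there.

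Cyp4a10 had 836, 2631, 674, 1844 and 1330.0 CPM in 7-HCG 15 mg/kg kidneys, 553, 1192, 1847, 1026 and 1960.1 CPM in 7-HCG 30 mg/kg kidneys, 1584, 1672, 1443, 507 and 345 CPM in cisplatin kidneys, and 793, 429, 381, 957 and 561 CPM in control kidneys. This gene, a classical PPARα target, was the most abundant P450 per kilobase, and its groups overlapped in every pair. Over cisplatin it changed by 0.40 ± 0.45 (edgeR adjusted p = 0.506) at 15 mg/kg and by 0.24 ± 0.45 (edgeR adjusted p = 0.713) at 30 mg/kg. Over control it rose by 1.23 ± 0.45 (edgeR adjusted p = 0.0326) at 15 mg/kg, while 1.08 ± 0.45 (edgeR adjusted p = 0.0695) at 30 mg/kg and 0.83 ± 0.45 (edgeR adjusted p = 0.233) in cisplatin missed the threshold. Without cisplatin replicates 9 and 10, the 2 lowest of their group, the values over cisplatin turned to −0.056 and −0.28, and the rise over control ended without 7-HCG 15 mg/kg replicate 2 (0.92), among 8 such settings.

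Cyp4a14 had 544, 2478, 361, 1611 and 1062 CPM in 7-HCG 15 mg/kg kidneys, 295, 1335, 2308, 888 and 1892 CPM in 7-HCG 30 mg/kg kidneys, 677, 778, 777, 124 and 197 CPM in cisplatin kidneys, and 108, 79.2, 83.8, 212 and 91.8 CPM in control kidneys. Cyp4a14, the neighbour of Cyp4a10 and also a PPARα target, was higher in every 7-HCG kidney than in every control kidney. It rose over control by 3.40 ± 0.63 (edgeR adjusted p = 0.000456) at 15 mg/kg, by 3.55 ± 0.63 (edgeR adjusted p = 0.00067) at 30 mg/kg and by 2.15 ± 0.60 (edgeR adjusted p = 0.0236) in cisplatin. The calls of both doses held in all 30 alternatives. The call of cisplatin ended in 5, among them without control replicate 2 (2.05) and without control replicate 5 (2.06). Over cisplatin, Cyp4a14 changed by 1.25 ± 0.58 (edgeR adjusted p = 0.0965) and 1.40 ± 0.58 (edgeR adjusted p = 0.0778) at 15 and 30 mg/kg, both short of the threshold, though DESeq2 called both (DESeq2 adjusted p = 0.0426 and 0.0425).

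Cyp4a31 passed the test in no comparison, with changes of 0.23 ± 0.41 and 0.37 ± 0.41 at 15 and 30 mg/kg over cisplatin and 0.21 ± 0.41 in cisplatin over control. Cyp4a32 stood far lower and had 4.11 ± 1.29 CPM in 7-HCG 15 mg/kg, 4.42 ± 1.39 in 7-HCG 30 mg/kg, 1.16 ± 0.689 in cisplatin and 0.842 ± 0.46 in control kidneys. It rose over cisplatin by 1.75 ± 0.47 (edgeR adjusted p = 0.00718) and 1.85 ± 0.47 (edgeR adjusted p = 0.0075) at 15 and 30 mg/kg and over control by 2.28 and 2.39 at 15 and 30 mg/kg, and these calls held in all 30 alternatives. Of the 150-base windows of its transcripts, 6.96% also occur in other Cyp4a genes, so its counts may hold reads of more abundant neighbours.

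Of the 6 tested Cyp4f genes, which act on leukotrienes and long-chain fatty acids, Cyp4f14 alone changed against cisplatin. It rose by 1.60 ± 0.46 (edgeR adjusted p = 0.00957) at 15 mg/kg and 1.54 ± 0.45 (edgeR adjusted p = 0.0163) at 30 mg/kg, at levels of 2.1 ± 0.443 and 2.01 ± 0.38 CPM against 0.637 ± 0.434 CPM in cisplatin kidneys. Cyp4f17 had 5.12, 17.9, 4.31, 12.8 and 10.0 CPM in 7-HCG 15 mg/kg kidneys, 4.52, 14.1, 25.8, 8.97 and 8.65 CPM in 7-HCG 30 mg/kg kidneys, 14.1, 8.02, 18, 5.41 and 45 CPM in cisplatin kidneys, and 4.91, 2.58, 3.95, 3.87 and 4.91 CPM in control kidneys. It rose over control by 1.31 ± 0.52 (edgeR adjusted p = 0.0462) at 15 mg/kg, 1.62 ± 0.52 (edgeR adjusted p = 0.023) at 30 mg/kg and, in cisplatin, 2.15 ± 0.53 (edgeR adjusted p = 0.0145), and all 5 cisplatin kidneys lay above the control kidneys under TMM scaling. Scaled on library totals, cisplatin replicate 9 lay at 2.07 CPM, below the control kidneys at 3.12 to 5.53 CPM. Without cisplatin replicate 10, the highest, the change in cisplatin was 1.49 and missed the threshold. The call at 15 mg/kg ended in 18 of 30 alternatives. Cyp4f13 and Cyp4f16 rose in all 3 groups over control, by 1.03 at 15 mg/kg, 0.63 at 30 mg/kg and 0.78, and by 1.13 at 15 mg/kg, 0.78 at 30 mg/kg and 0.75. The Cyp4f13 call ended in 12 of 30 alternatives at 30 mg/kg and in 8 in cisplatin (down to 0.34 and 0.32), and the Cyp4f16 call in cisplatin in 6 (down to 0.39 under library totals) and at 30 mg/kg under library totals alone. Cyp4f15, Cyp4f18 and Cyp4v3 passed in none.

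**Figure D2:**
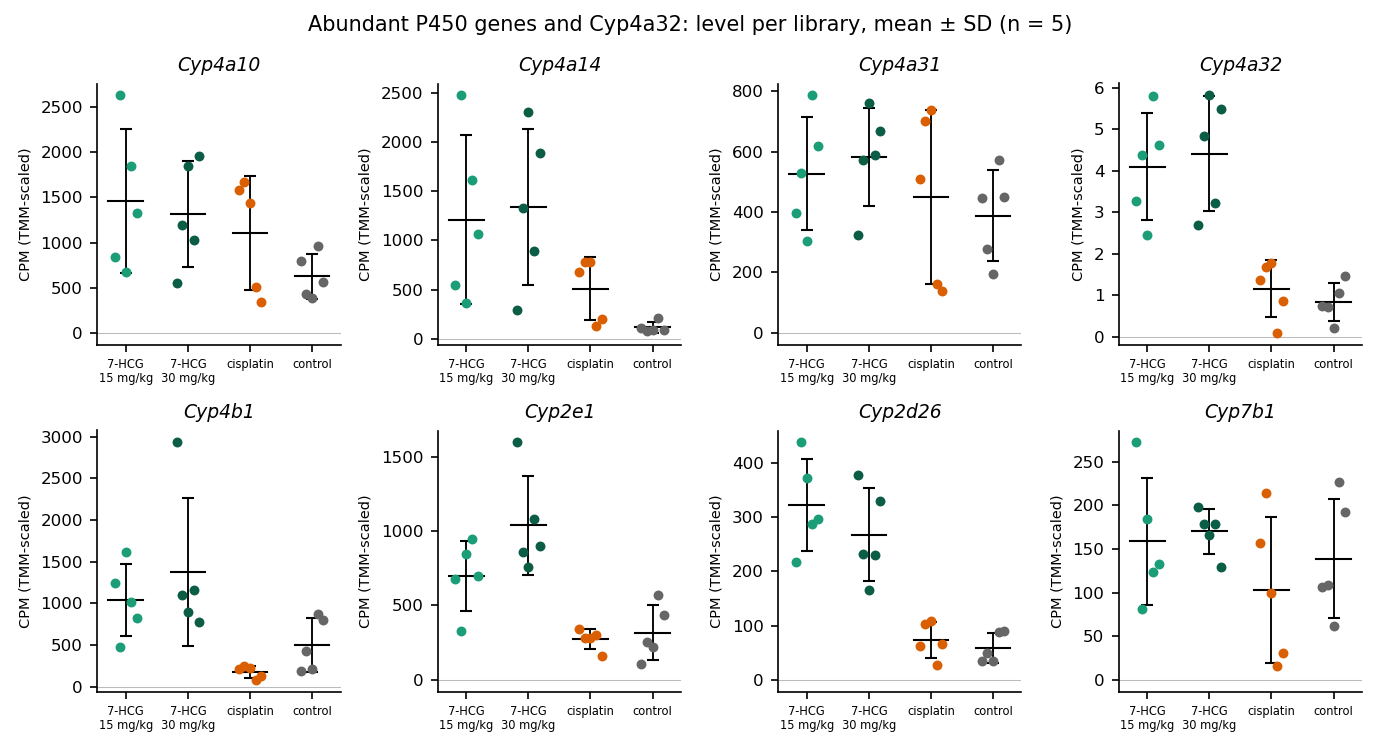
Level per library (CPM, TMM-scaled, linear axes from near 0) of 7 abundant P450 genes and of Cyp4a32, with points for the 5 kidneys of each group and black bars for mean ± SD. For Cyp4b1 and Cyp2d26 every 7-HCG kidney is above every cisplatin kidney, while the groups of Cyp4a10, Cyp4a31 and Cyp7b1 overlap.

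The 8 Cyp2j genes, whose mouse enzymes include arachidonic acid epoxygenases, form a single block on the minus strand of chromosome 4 between 96027534 and 96664154 (GRCm38). In order along the chromosome they are Cyp2j13, Cyp2j12, Cyp2j7, Cyp2j11, Cyp2j8, Cyp2j6, Cyp2j9 and Cyp2j5, and only Cyp2j12 could not be tested. Neighbouring members went opposite ways: with 7-HCG, Cyp2j13, Cyp2j11 and Cyp2j5 rose against cisplatin, and Cyp2j8 and Cyp2j9, which lie among them, fell. The RefSeq promoters of the 6 members in the sequence table are shown because these neighbours differed in direction. Each runs from 250 bases before to 50 bases after the start on the minus strand of GRCm38.p6, written 5′ to 3′, at chr4:96077498-96077797 for Cyp2j13, chr4:96348631-96348930 for Cyp2j11, chr4:96664070-96664369 for Cyp2j5, chr4:96507348-96507647 for Cyp2j8, chr4:96591436-96591735 for Cyp2j9 and chr4:96553602-96553901 for Cyp2j6. Capitals mark matches, on either strand, to AGGTCA (the core bound by many nuclear receptors), GTTAAT (the core of the HNF1 site), AGAACA (the core bound by androgen and glucocorticoid receptors) or GCGTG (the core of the AHR element).
Cyp2j13: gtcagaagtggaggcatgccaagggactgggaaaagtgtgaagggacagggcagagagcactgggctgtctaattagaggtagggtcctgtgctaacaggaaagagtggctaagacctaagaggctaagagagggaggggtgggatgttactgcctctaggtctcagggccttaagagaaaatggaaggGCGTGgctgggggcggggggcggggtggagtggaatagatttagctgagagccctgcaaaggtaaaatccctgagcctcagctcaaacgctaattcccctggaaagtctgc
Cyp2j11: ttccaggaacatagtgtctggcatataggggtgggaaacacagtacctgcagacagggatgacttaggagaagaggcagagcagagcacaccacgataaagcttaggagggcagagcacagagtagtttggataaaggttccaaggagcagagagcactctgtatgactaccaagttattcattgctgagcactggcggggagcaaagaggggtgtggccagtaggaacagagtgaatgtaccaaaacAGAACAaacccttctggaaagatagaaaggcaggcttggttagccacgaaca
Cyp2j5: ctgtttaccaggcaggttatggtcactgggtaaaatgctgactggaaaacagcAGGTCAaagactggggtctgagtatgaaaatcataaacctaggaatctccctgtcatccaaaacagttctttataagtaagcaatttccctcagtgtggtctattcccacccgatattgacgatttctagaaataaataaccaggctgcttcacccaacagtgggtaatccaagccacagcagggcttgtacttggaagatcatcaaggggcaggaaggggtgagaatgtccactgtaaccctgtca
Cyp2j8: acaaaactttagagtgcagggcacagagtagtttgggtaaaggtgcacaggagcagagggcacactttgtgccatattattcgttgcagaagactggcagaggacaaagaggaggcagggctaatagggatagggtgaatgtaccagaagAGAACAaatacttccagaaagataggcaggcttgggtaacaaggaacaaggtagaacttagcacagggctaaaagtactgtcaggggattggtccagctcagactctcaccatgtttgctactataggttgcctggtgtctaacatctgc
Cyp2j9: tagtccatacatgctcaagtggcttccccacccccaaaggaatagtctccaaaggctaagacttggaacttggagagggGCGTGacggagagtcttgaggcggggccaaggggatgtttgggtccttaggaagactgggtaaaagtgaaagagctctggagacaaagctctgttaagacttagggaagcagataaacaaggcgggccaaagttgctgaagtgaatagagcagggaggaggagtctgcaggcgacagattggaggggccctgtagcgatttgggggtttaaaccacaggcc
Cyp2j6: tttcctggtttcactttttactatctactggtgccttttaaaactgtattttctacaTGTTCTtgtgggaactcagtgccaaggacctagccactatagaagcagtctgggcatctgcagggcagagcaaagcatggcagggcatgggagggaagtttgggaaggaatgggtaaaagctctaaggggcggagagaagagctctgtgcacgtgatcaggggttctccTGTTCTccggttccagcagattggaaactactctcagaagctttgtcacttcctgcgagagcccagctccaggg

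Among the 3 members that rose, Cyp2j13 held GCGTG at −61, Cyp2j11 held AGAACA at −2 and Cyp2j5 held AGGTCA at −197, counted as the first base of the match relative to the start. Cyp2j8 and Cyp2j9, which fell, held AGAACA at −100 and GCGTG at −171. Cyp2j6, which passed against cisplatin at neither dose, held AGAACA at −193 and −24. None of the 6 windows held GTTAAT. No motif was found in all members of either direction. Of 32851 promoters of this length, 16.3% held AGGTCA, 7.10% GTTAAT, 19.0% AGAACA and 32.4% GCGTG. The 4 motifs do not overlap in these windows. A match of so few letters is a description and not a bound site.

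Cyp2j13 had 107, 19.6, 153, 55.6 and 55.8 CPM in 7-HCG 15 mg/kg kidneys, 219, 103, 51.8, 132 and 57.2 CPM in 7-HCG 30 mg/kg kidneys, 8.2, 25.9, 15.8, 4.39 and 4.63 CPM in cisplatin kidneys, and 14.1, 44.6, 18.3, 83.4 and 68 CPM in control kidneys. All 5 kidneys of the 30 mg/kg dose, and 4 of 5 of the 15 mg/kg dose, lay above every cisplatin kidney. Cyp2j13 rose over cisplatin by 2.70 ± 0.64 (edgeR adjusted p = 0.00362) and 3.23 ± 0.65 (edgeR adjusted p = 0.00243) at 15 and 30 mg/kg, in all 30 alternatives. It fell by 1.92 ± 0.62 in cisplatin against control (edgeR adjusted p = 0.0474), a call that ended in most leave-one-out fits, for example −1.60 without control replicate 7.

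Cyp2j11 had 145, 142, 151, 126 and 156 CPM in 7-HCG 15 mg/kg kidneys, 175, 148, 124, 156 and 118 CPM in 7-HCG 30 mg/kg kidneys, 40.7, 63.7, 65.5, 13.5 and 23.4 CPM in cisplatin kidneys, and 41.7, 41.8, 20.7, 86.7 and 69.3 CPM in control kidneys. The 7-HCG kidneys stood apart from both other groups, with no overlap. Cyp2j11 rose over cisplatin by 1.79 ± 0.36 (edgeR adjusted p = 0.00104) and 1.80 ± 0.36 (edgeR adjusted p = 0.0019) at 15 and 30 mg/kg and over control by 1.47 ± 0.36 (edgeR adjusted p = 0.0029) and 1.47 ± 0.36 (edgeR adjusted p = 0.0046) at 15 and 30 mg/kg, in all 30 alternatives. Cisplatin against control gave −0.32 ± 0.35 (edgeR adjusted p = 0.583).

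Cyp2j5 had 872, 685, 1018, 478 and 895 CPM in 7-HCG 15 mg/kg kidneys, 855, 841, 741, 927 and 782 CPM in 7-HCG 30 mg/kg kidneys, 317, 505, 512, 115 and 143 CPM in cisplatin kidneys, and 374, 357, 172, 686 and 662 CPM in control kidneys. Cyp2j5, the most abundant member and an epoxygenase of the mouse proximal tubule, overlapped with cisplatin at 15 mg/kg through replicate 5 of that dose, and did not overlap at 30 mg/kg. It rose by 1.31 ± 0.39 (edgeR adjusted p = 0.0118) and 1.38 ± 0.39 (edgeR adjusted p = 0.0124) at 15 and 30 mg/kg over cisplatin. Without cisplatin replicates 9 and 10, the lowest of their group, the changes were 0.86 and 0.89 and missed the threshold, as did 1.34 and 1.48 under scaling on library totals. Cisplatin against control gave −0.50 ± 0.38 (edgeR adjusted p = 0.41).

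Cyp2j9 had 9.53, 13.5, 9.45, 4.82 and 10.6 CPM in 7-HCG 15 mg/kg kidneys, 5.06, 15.4, 15.9, 15.1 and 15.6 CPM in 7-HCG 30 mg/kg kidneys, 34.2, 19.9, 41.7, 43.9 and 70.4 CPM in cisplatin kidneys, and 18.1, 6.57, 7.33, 16 and 14.5 CPM in control kidneys. The mouse enzyme of Cyp2j9 hydroxylates arachidonic acid and was described in brain. Every cisplatin kidney lay above every kidney of the other 3 groups, and the 7-HCG and control kidneys overlapped. Scaled on library totals, cisplatin replicate 9 was at 16.8 CPM, below the highest kidneys of 7-HCG 30 mg/kg (18.6 CPM) and control (17.4 CPM). Cyp2j9 fell by 2.13 ± 0.37 at 15 mg/kg and by 1.64 ± 0.36 at 30 mg/kg against cisplatin (edgeR adjusted p = 0.000377 and 0.00342), and rose by 1.75 ± 0.37 (edgeR adjusted p = 0.00636) in cisplatin over control. The call at 30 mg/kg ended under scaling on library totals (−1.06), and that of cisplatin over control without cisplatin replicates 9 and 10 (1.32) or without control replicates 2 and 5 (1.37).

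Cyp2j8, at a level close to the floor, also fell with both doses against cisplatin. Cyp2j8 had 0.257, 0.161, 0.206, 0.0617 and 0.347 CPM in 7-HCG 15 mg/kg kidneys, 0, 0.381, 0.476, 0.447 and 0.233 CPM in 7-HCG 30 mg/kg kidneys, 1.61, 0.939, 1.7, 2.96 and 2.75 CPM in cisplatin kidneys, and 1.33, 0.266, 0.194, 0.362 and 0.574 CPM in control kidneys, which is at most 50 reads in a library. Its changes against cisplatin were −3.20 ± 0.70 (edgeR adjusted p = 0.00187) and −2.67 ± 0.68 (edgeR adjusted p = 0.00758) at 15 and 30 mg/kg. The call at 30 mg/kg ended under library totals (−2.04) and without cisplatin replicates 9 and 10 (−2.23). In cisplatin over control, 1.86 ± 0.66 (edgeR adjusted p = 0.0652) missed the threshold and the groups overlapped.

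Cyp2j7 had 1.3, 2.61, 0.877, 0.34 and 1.2 CPM in 7-HCG 15 mg/kg kidneys, 0.14, 0.968, 0.22, 1.64 and 1.14 CPM in 7-HCG 30 mg/kg kidneys, 3.7, 2.01, 2.91, 2.14 and 7.13 CPM in cisplatin kidneys, and 3.16, 0.399, 0.359, 1.81 and 2.58 CPM in control kidneys. Cyp2j7 fell by 2.08 ± 0.68 at 30 mg/kg against cisplatin (edgeR adjusted p = 0.0275), while −1.48 ± 0.67 (edgeR adjusted p = 0.0845) at 15 mg/kg missed the threshold. Without cisplatin replicate 10, its highest kidney, the change at 30 mg/kg was −1.67 and was not called. It ended also without replicate 1 (−1.80) or 6 (−1.84) of that dose, without cisplatin replicates 9 and 10 (−1.79) and under library totals (−1.51). The groups did not overlap under TMM scaling but did under library totals, with cisplatin replicate 9 at 0.819 CPM. Cyp2j6 passed in 1 comparison, rising by 0.92 ± 0.24 (edgeR adjusted p = 0.0175) in cisplatin over control, where all 5 cisplatin kidneys lay above the 5 control kidneys under TMM scaling. Under library totals, cisplatin replicate 9, at 24.3 CPM, lay below the control kidneys at 30.2 to 40.5 CPM. That call ended under library totals (0.49), without cisplatin replicate 10 (0.77) or 9 and 10 (0.67), and without control replicate 2 (0.85) or 5 (0.80).

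**Figure D3:**
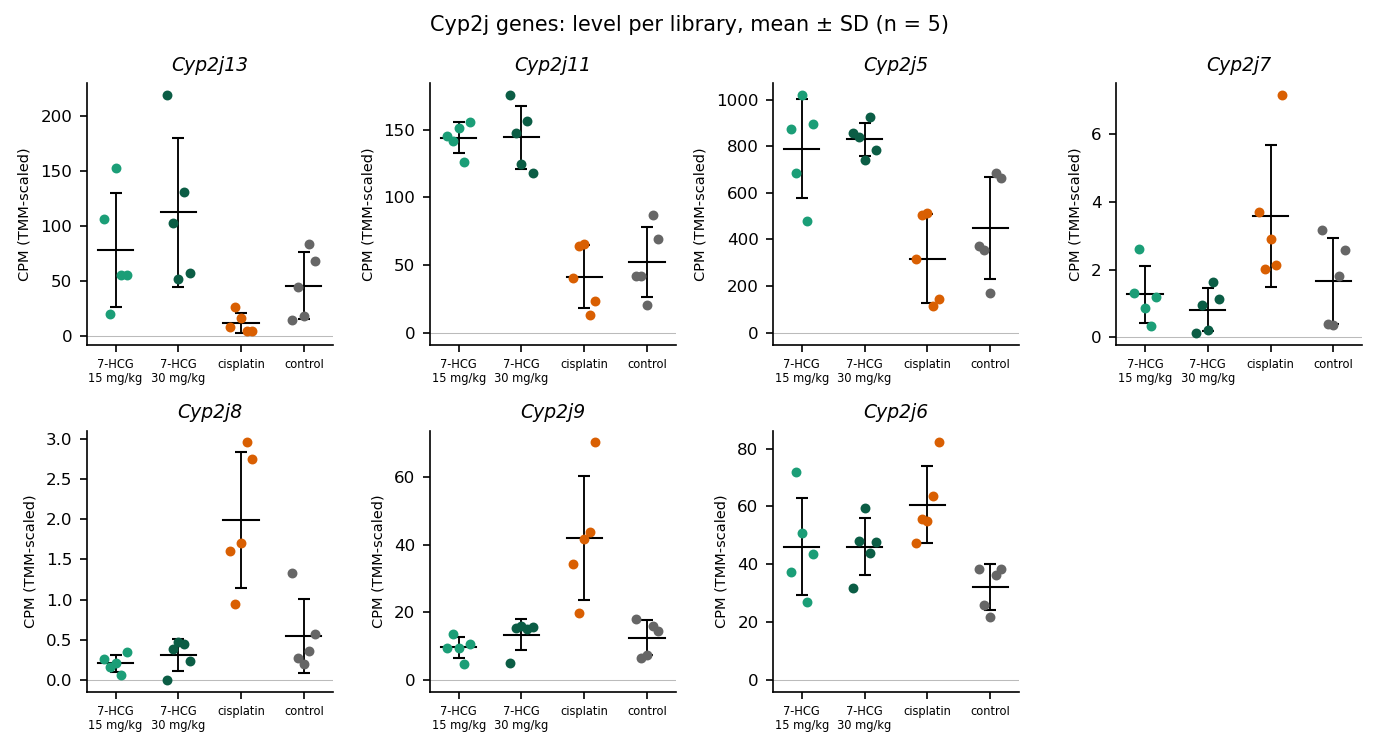
Level per library (CPM, TMM-scaled, linear axes) of the 7 tested Cyp2j genes, with points for the 5 kidneys of each group and black bars for mean ± SD. Cyp2j13, Cyp2j11 and Cyp2j5 are high in the 7-HCG groups and low in cisplatin, while the means of Cyp2j7, Cyp2j8 and Cyp2j9 are highest in cisplatin under this scaling.

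The remaining genes of family 2 mostly handle foreign compounds and steroids. Cyp2e1 had 677, 325, 847, 944 and 695 CPM in 7-HCG 15 mg/kg kidneys, 1598, 857, 759, 1085 and 900.4 CPM in 7-HCG 30 mg/kg kidneys, 339.8, 284, 280.0, 301 and 162 CPM in cisplatin kidneys, and 106, 257, 221, 568 and 434 CPM in control kidneys. Cyp2e1, which oxidises ethanol and other small molecules, was higher in all 5 kidneys of the 30 mg/kg dose than in any cisplatin or control kidney. It rose over cisplatin by 1.35 ± 0.36 (edgeR adjusted p = 0.00656) and 1.93 ± 0.37 (edgeR adjusted p = 0.00131) at 15 and 30 mg/kg, and over control by 1.14 ± 0.36 (edgeR adjusted p = 0.0143) and 1.71 ± 0.36 (edgeR adjusted p = 0.00188) at 15 and 30 mg/kg. The calls over cisplatin and that of 30 mg/kg over control held in all 30 alternatives, and that of 15 mg/kg over control ended under library totals (1.09) and without control replicates 2 and 5 (0.92). Cisplatin against control gave −0.22 ± 0.35 (edgeR adjusted p = 0.732).

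Cyp2d26 had 218, 439, 373, 288 and 298 CPM in 7-HCG 15 mg/kg kidneys, 379, 233, 166, 230.0 and 331 CPM in 7-HCG 30 mg/kg kidneys, 62.5, 103, 109, 27.8 and 66 CPM in cisplatin kidneys, and 33.9, 48.6, 34.4, 87.8 and 89.8 CPM in control kidneys. All 10 7-HCG kidneys lay above all 5 cisplatin and all 5 control kidneys. Cyp2d26 rose over cisplatin by 2.13 ± 0.36 (edgeR adjusted p = 0.000296) and 1.86 ± 0.35 (edgeR adjusted p = 0.00129) at 15 and 30 mg/kg and over control by 2.46 ± 0.36 (edgeR adjusted p = 7.73e-05) and 2.18 ± 0.36 (edgeR adjusted p = 0.00029) at 15 and 30 mg/kg, and all 4 calls held in all 30 alternatives. Cisplatin against control gave 0.32 ± 0.34 (edgeR adjusted p = 0.572).

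All 5 tested Cyp2d genes rose over control at 15 mg/kg and 4 of 5 at 30 mg/kg, where 23% and 18.6% of all tested genes rose. Of these calls, Cyp2d10 at 30 mg/kg ended in 16 of its alternatives, Cyp2d12 at 15 mg/kg in 7 and Cyp2d9 at 30 mg/kg in 2, each without control replicates 2 and 5 among them (1.92, 0.51 and 0.86). Cyp2d10 averaged 0.515 CPM over the 20 libraries, with at most 49 reads in a library. Of the 150-base windows of its transcripts, 4.55% also occur in Cyp2d11 or Cyp2d9. Cyp2d9 averaged 276 CPM, so the Cyp2d10 counts may hold reads of it. Cyp2d22 rose by 1.36 ± 0.31 (edgeR adjusted p = 0.00204) and 1.54 ± 0.32 (edgeR adjusted p = 0.00153) at 15 and 30 mg/kg, and by 1.70 ± 0.32 (edgeR adjusted p = 0.00355) in cisplatin, and against cisplatin gave −0.34 ± 0.31 and −0.16 ± 0.31 at 15 and 30 mg/kg, which were not called. Cyp2d9, a male-typical testosterone hydroxylase of mouse liver, rose by 1.57 and 1.16 at 15 and 30 mg/kg over control. Cyp2d12 rose over cisplatin by 1.68 at 15 mg/kg and 1.29 at 30 mg/kg, and the call at 30 mg/kg ended without replicate 1 of that dose (0.85) and without cisplatin replicates 9 and 10 (1.09).

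Cyp2a5 is the mouse coumarin 7-hydroxylase, which makes the parent compound of 7-HCG from coumarin. It had 104 ± 32.2 CPM in 7-HCG 15 mg/kg, 119.7 ± 85.4 in 7-HCG 30 mg/kg, 57.8 ± 13.3 in cisplatin and 27.6 ± 12.1 in control kidneys. It rose over control by 1.91 ± 0.37 (edgeR adjusted p = 0.000535) and 2.12 ± 0.37 (edgeR adjusted p = 0.000501) at 15 and 30 mg/kg, in all 30 alternatives, and missed the threshold in cisplatin over control at 1.07 ± 0.36 (edgeR adjusted p = 0.0518). Over cisplatin its rise at 30 mg/kg, 1.05 ± 0.36 (edgeR adjusted p = 0.0343), was 0.51 without replicate 6 of that dose, at 270.2 CPM, and was not called then. That call ended in 8 of 30 alternatives, without cisplatin replicates 9 and 10 together and with limma voom among them. Cyp2a4, the steroid-hydroxylating neighbour of Cyp2a5, rose over cisplatin at 15 mg/kg by 1.16 ± 0.43 (edgeR adjusted p = 0.0368), a call that ended in 10 of 30 alternatives. Of the 150-base windows of the Cyp2a5 and Cyp2a4 transcripts, 4.56% and 4.22% also occur in the other gene or in a pseudogene of the group.

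Cyp2b10 had 0.178, 0.161, 0, 2.07 and 0.0267 CPM in 7-HCG 15 mg/kg kidneys, 0.186, 0.0587, 4.43, 0.331 and 0.42 CPM in 7-HCG 30 mg/kg kidneys, 0.964, 0.225, 0.071, 0 and 1 CPM in cisplatin kidneys, and 0, 0, 0, 0 and 0 CPM in control kidneys. Cyp2b10, the standard target of the receptor CAR, thus had no read in any control kidney, where 3 counts in 1 library are worth up to 0.125 CPM on this scale. Against that floor its mean was at least 3.90-fold higher at 15 mg/kg and at least 8.70-fold higher at 30 mg/kg than in control. In cisplatin, which was not called, it was at least 3.63-fold higher. Without the kidney with the most reads, the 15 mg/kg mean, 0.0913 CPM, was below the floor and gave no bound, and the bounds were 2.00-fold at 30 mg/kg and 2.53-fold in cisplatin. Both 7-HCG changes were called (edgeR adjusted p = 0.02 and 0.011), while 1 kidney of each dose held most of the reads, and the call at 15 mg/kg ended without replicate 5 (edgeR adjusted p = 0.0994). Both calls ended without control replicates 2 and 5 (edgeR adjusted p = 0.0767 and 0.054). Cyp2c23, an epoxygenase of mouse kidney, rose over control by 0.93 and 0.93 at 15 and 30 mg/kg, and Cyp2s1 by 1.51 at 15 mg/kg, 1.70 at 30 mg/kg and, in cisplatin, 1.30. Both Cyp2c23 calls ended under library totals and without control replicates 2 and 5 (0.59 and 0.58), and the Cyp2s1 call in cisplatin ended in 7 of 30 alternatives, without control replicates 2 and 5 among them (1.02). Cyp2c69, Cyp2f2 and Cyp2u1 passed in no comparison, and Cyp2t4 fell by 1.34 at 15 mg/kg against control alone.

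In family 1, Cyp1a1 is the textbook target of AHR, and Cyp1b1 is a further target made in mesenchymal and vascular cells. Cyp1a1 had 2.13, 0.481, 1.81, 0.556 and 0.534 CPM in 7-HCG 15 mg/kg kidneys, 1.45, 0.645, 0.659, 1.11 and 0.7 CPM in 7-HCG 30 mg/kg kidneys, 0.161, 0.789, 0.39, 0.204 and 0 CPM in cisplatin kidneys, and 0.915, 1.33, 10.8, 1.54 and 0.766 CPM in control kidneys. The change of Cyp1a1 in cisplatin against control was −3.05 ± 0.77 (edgeR adjusted p = 0.0151) and rested on control replicate 5. Without that kidney it was −1.64 (edgeR adjusted p = 0.0995), and the range over the alternatives was −3.77 to −1.16. Control replicate 5 also had the highest sums of adipose, endothelial (1243 CPM) and smooth muscle and fibroblast markers (1024 CPM), and the part of these cells in the Cyp1a1 value was not tested.

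Cyp1b1 had 14.3, 4.57, 8.52, 4.26 and 5.02 CPM in 7-HCG 15 mg/kg kidneys, 11.8, 6.22, 2.6, 8.97 and 11 CPM in 7-HCG 30 mg/kg kidneys, 11.8, 12.4, 9.23, 202 and 19.5 CPM in cisplatin kidneys, and 38, 24.2, 20.0, 25.4 and 23.5 CPM in control kidneys. The falls of Cyp1b1 against cisplatin, −2.79 ± 0.75 (edgeR adjusted p = 0.00782) and −2.64 ± 0.74 (edgeR adjusted p = 0.0144) at 15 and 30 mg/kg, rested on cisplatin replicate 9, and without it they were −0.82 and −0.69 with no call. In that kidney the 6 smooth muscle and fibroblast markers summed to 799 CPM against 139 to 223 CPM in the other cisplatin kidneys. Pdgfra (366 against 14.3 to 29.6 CPM), Pdgfrb (244 against 28.3 to 55.8 CPM) and Col1a1 (72.1 against 4.25 to 14.9 CPM) were raised there. Acta2, Myh11 and Tagln lay within the range of the other cisplatin kidneys. The part of these cells in the Cyp1b1 value was not tested. Against control every 7-HCG kidney was lower, with changes of −1.83 ± 0.72 (edgeR adjusted p = 0.0462) and −1.68 ± 0.72 (edgeR adjusted p = 0.076) at 15 and 30 mg/kg. Both groups also had less of the same markers, at 110 to 321 CPM in 7-HCG 15 mg/kg and 86.4 to 288 CPM in 7-HCG 30 mg/kg against 409 to 1024 CPM in control. The call at 15 mg/kg ended in most alternatives, for example without control replicate 1 (−1.64). Of the 6 tested genes in a list of other AHR targets, 0 passed against cisplatin at either dose by edgeR, DESeq2 or limma voom, and 1 at each dose had an unadjusted edgeR p below 0.05, where 37.5% and 27.9% of all tested genes passed. Against control 3 rose and 1 fell at 15 mg/kg, 3 rose and 0 fell at 30 mg/kg, and 2 rose and 0 fell in cisplatin, where limma voom called 0. Of all tested genes, 45.2%, 34.2% and 13.4% were called in these 3 comparisons.

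The P450 genes of sterol, steroid and retinoid metabolism stood mostly below 100 CPM. Cyp27a1 had 47.2, 84.7, 55, 60.7 and 57.6 CPM in 7-HCG 15 mg/kg kidneys, 62.6, 57.2, 47.7, 57.1 and 66.1 CPM in 7-HCG 30 mg/kg kidneys, 73.2, 34, 47.2, 121 and 192 CPM in cisplatin kidneys, and 32.8, 15.1, 20.4, 28.7 and 25.8 CPM in control kidneys. Cyp27a1, the mitochondrial sterol 27-hydroxylase, was higher in every 7-HCG and cisplatin kidney than in every control kidney. It rose over control by 1.31 ± 0.34 (edgeR adjusted p = 0.00412) at 15 mg/kg, 1.24 ± 0.34 (edgeR adjusted p = 0.00845) at 30 mg/kg and, in cisplatin, 1.93 ± 0.34 (edgeR adjusted p = 0.00276). Cisplatin replicates 9 and 10 were the highest of their group under TMM scaling, while under library totals replicate 2 was highest (85.0 CPM) and replicate 9 stood at 46.2 CPM. Without them and control replicates 2 and 5 together, an alternative chosen after the data were seen, the change in cisplatin was 0.81 and not called, and the call at 30 mg/kg ended without control replicates 2 and 5 (1.00). Against cisplatin the 7-HCG groups gave −0.61 ± 0.33 and −0.68 ± 0.33 at 15 and 30 mg/kg and were not called.

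Cyp7b1 had 272, 81.2, 184, 124 and 132 CPM in 7-HCG 15 mg/kg kidneys, 198, 179, 166, 179 and 129 CPM in 7-HCG 30 mg/kg kidneys, 157, 214, 99.8, 15.6 and 30.6 CPM in cisplatin kidneys, and 106, 108, 61.1, 226 and 193 CPM in control kidneys. Cyp7b1, which hydroxylates oxysterols and steroids at another position, passed in no comparison, with 0.62 ± 0.51 at 15 mg/kg, 0.72 ± 0.51 at 30 mg/kg and, in cisplatin over control, −0.42 ± 0.51. Cisplatin replicates 9 and 10 were the lowest of all 20 kidneys. Cyp46a1 had 2.33, 1.04, 2.45, 0.803 and 2.08 CPM in 7-HCG 15 mg/kg kidneys, 1.33, 1.35, 0.842, 1.09 and 1.75 CPM in 7-HCG 30 mg/kg kidneys, 4.18, 2.85, 3.05, 3.88 and 3 CPM in cisplatin kidneys, and 7.19, 1.81, 2.41, 2.96 and 1.85 CPM in control kidneys. Cyp46a1, the cholesterol 24-hydroxylase best known from neurons, fell by 1.41 ± 0.40 at 30 mg/kg against cisplatin (edgeR adjusted p = 0.0128), with every kidney of that dose below every cisplatin kidney under TMM scaling. Under library totals cisplatin replicates 9 and 10 were at 1.48 and 1.29 CPM, among the kidneys of that dose at 0.886 to 2.09 CPM. The change at 15 mg/kg was −0.95 ± 0.39 (edgeR adjusted p = 0.06). The call at 30 mg/kg ended under library totals (−1.01), and that against control, −1.34, without control replicate 1 (−0.82). Cyp39a1 and Cyp20a1 passed in no comparison.

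Cyp17a1, the steroid 17-hydroxylase, had 0.927 ± 0.595 CPM in 7-HCG 15 mg/kg, 0.619 ± 0.309 in 7-HCG 30 mg/kg, 1.49 ± 1.13 in cisplatin and 0.2 ± 0.104 in control kidneys, with at most 57 reads in a library. It rose over control by 2.20 ± 0.58 (edgeR adjusted p = 0.00484) at 15 mg/kg, 1.62 ± 0.58 (edgeR adjusted p = 0.0349) at 30 mg/kg and, in cisplatin, 2.89 ± 0.59 (edgeR adjusted p = 0.00596). The call at 30 mg/kg ended in 10 of 30 alternatives, and that in cisplatin without control replicates 2 and 5 (2.85). The 7 adrenal cortex markers summed to 4.53 to 9.42 CPM in 7-HCG 15 mg/kg, 5.57 to 9.42 CPM in 7-HCG 30 mg/kg, 3.89 to 16.8 CPM in cisplatin and 7.65 to 32.2 CPM in control. The highest sum, in control replicate 5, held 26.4 CPM of Mrap, in the kidney with the most adipose marker mRNA (2362 CPM). Nr5a1, a factor that defines the adrenal cortex, was at 0 in all 7-HCG 15 mg/kg and cisplatin kidneys, and Nr0b1 in all cisplatin and control kidneys. Mc2r (3.47 CPM) and Akr1b7 (8.37 CPM) were highest of all libraries in cisplatin replicate 9, where Cyp17a1 had 1.63 CPM. Cyp17a1 was highest in cisplatin replicate 2, at 3.38 CPM. There the adrenal cortex markers summed to 5.14 CPM, with 5 of the 7 at 0. The part of adrenal tissue in the Cyp17a1 values was not tested. Cyp3a13, the single tested gene of family 3, rose over control by 1.75 ± 0.56 (edgeR adjusted p = 0.0205) at 30 mg/kg and 1.91 ± 0.57 (edgeR adjusted p = 0.0311) in cisplatin, and the call in cisplatin ended in 11 of 30 alternatives, for example without cisplatin replicates 9 and 10 (1.20). The call at 30 mg/kg ended in 4, for example without control replicates 2 and 5 (1.54).

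Cyp26b1 and Cyp26a1 clear retinoic acid. Cyp26b1 had 3.34, 1.52, 1.68, 1.94 and 1.44 CPM in 7-HCG 15 mg/kg kidneys, 4.73, 2.26, 1.39, 3.63 and 8.79 CPM in 7-HCG 30 mg/kg kidneys, 6.99, 3.4, 4.01, 14.1 and 3.13 CPM in cisplatin kidneys, and 10.3, 9.92, 13.4, 1.36 and 2.46 CPM in control kidneys. Cyp26b1 fell at 15 mg/kg by 1.65 ± 0.58 against cisplatin and by 1.91 ± 0.58 against control (edgeR adjusted p = 0.0315 and 0.0121), with no such call at 30 mg/kg (−0.59 ± 0.57 and −0.84 ± 0.56). The difference between the doses, 1.06 ± 0.57 (edgeR adjusted p = 0.677), was not called. Without cisplatin replicate 9, the fall at 15 mg/kg against cisplatin was −1.11 and lost its call, as did the fall against control without control replicates 2 and 5 (−1.22). Cyp26a1 fell against control by 2.42 ± 0.79 and 2.84 ± 0.80 at the 2 doses, at levels of at most 1.33 CPM in a library. Its call at 15 mg/kg ended without control replicate 1 (−1.79). The retinoic acid receptors Rarb and Rarg fell against cisplatin at both doses, by 2.33 and 2.33 and by 0.97 and 1.01. They belong to a list of 20 tested receptors and partner factors. Of that list 3 rose and 3 fell at 15 mg/kg, and 0 rose and 4 fell at 30 mg/kg. Over all tested genes 37.5% and 27.9% were called. The 2 receptors were not followed without cisplatin replicate 9, and a link to the Cyp26 genes was not tested.

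**Figure D4:**
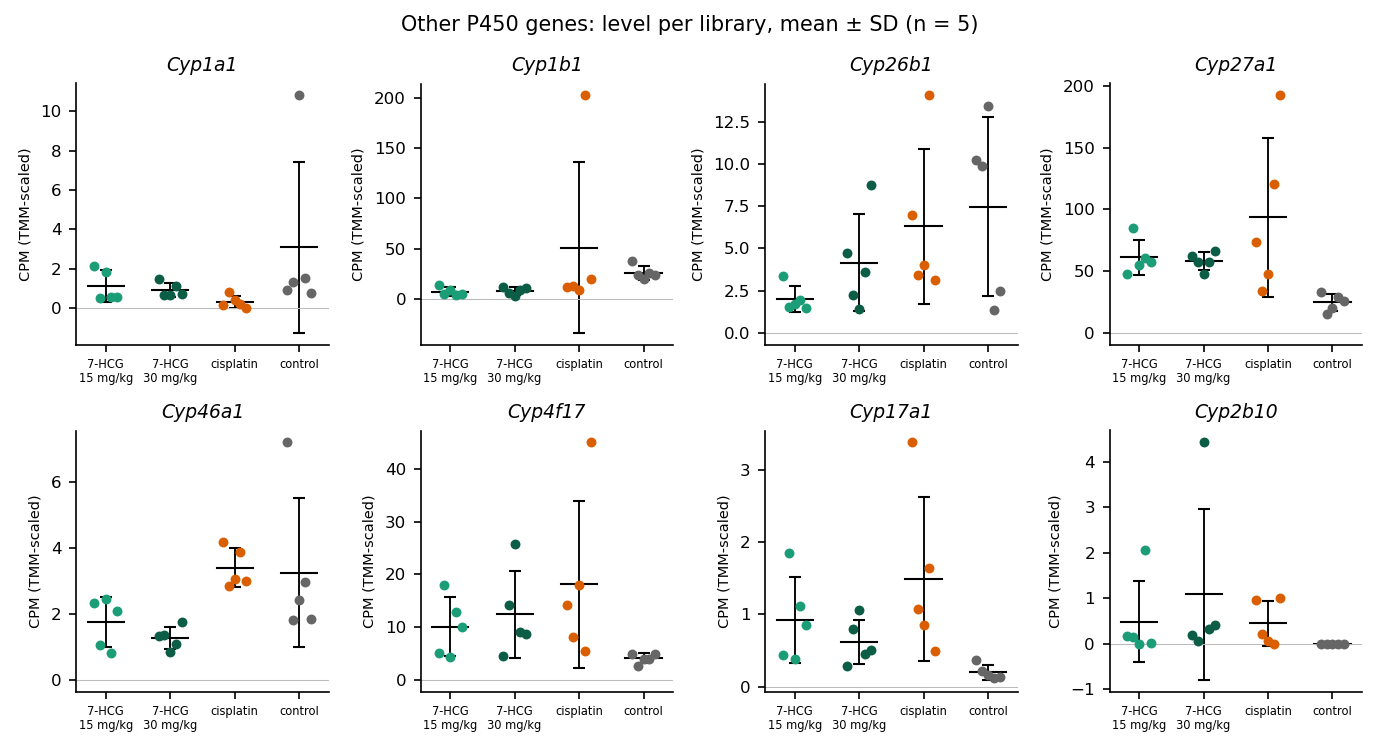
Level per library (CPM, TMM-scaled, linear axes) of 8 P450 genes at lower level, with points for the 5 kidneys of each group and black bars for mean ± SD, which reach below 0 where 1 kidney sets the spread. Single kidneys stand out in Cyp1a1 (control, 10.8 CPM) and Cyp1b1 (cisplatin, 202 CPM), and all control kidneys are at 0 for Cyp2b10.

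In cisplatin against control, 11 of the 45 tested P450 genes rose and 3 fell, which is 31.1% called against 13.4% of all tested genes, of which 8.41% rose and 5.01% fell. The 11 were Cyp2d22, Cyp2j6, Cyp2j9, Cyp2s1, Cyp3a13, Cyp4a14, Cyp4f13, Cyp4f16, Cyp4f17, Cyp17a1 and Cyp27a1, and the 3 were Cyp1a1, Cyp2j13 and Cyp4b1. The median change was 0.30 for the tested P450 genes and −0.01 over all tested genes. None of the 14 calls held in every alternative, although all kept their direction. Without control replicates 2 and 5, 2 P450 genes were called (1.92% of all tested genes), without cisplatin replicates 9 and 10, 6 (4.49%), and without these 4 libraries together, 0 (0.0461%). Cyp27a1 and Cyp2d22 were the calls kept without control replicates 2 and 5. Without cisplatin replicates 9 and 10, the calls of Cyp1a1, Cyp2j6, Cyp2j9, Cyp2j13, Cyp3a13, Cyp4b1, Cyp4f13 and Cyp4f16 ended.

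Against control, 20 P450 genes rose and 4 fell at 15 mg/kg, which is 53.3% called against 45.2% of all tested genes, of which 23% rose and 22.2% fell. At 30 mg/kg, 20 rose and 2 fell, 48.9% called against 34.2% of all tested genes, of which 18.6% rose and 15.6% fell. Rises made up most of the P450 calls at both doses. Of 6 endothelial markers 5 and 6 fell at 15 and 30 mg/kg, of 6 smooth muscle and fibroblast markers 6 and 6 fell, and 0 rose. Of 8 proximal tubule markers 3 and 1 rose, of 5 tested hepatocyte markers 3 and 1 rose, and 0 fell. Among the hepatocyte markers, Alb had 2.20 to 9.74 CPM over the 20 libraries, Ahsg 0 to 1.43 CPM and Apoc3 19.5 to 437 CPM. The part of any of these cell types in the P450 changes was not tested. The median change was 0.81 and 0.63 for the tested P450 genes, the same with Cyp2b10 set at its lower bound, against −0.06 and 0.01 over all tested genes. Without control replicates 2 and 5, 15 genes were called at 15 mg/kg and 12 at 30 mg/kg. The shares of all tested genes called in these refits are not given here, so the lower counts are not particular to P450 genes. The calls that ended were those of Cyp1b1, Cyp26b1, Cyp2b10, Cyp2c23, Cyp2d10, Cyp2d12, Cyp2e1, Cyp2t4, Cyp4a10 and Cyp4f17 at 15 mg/kg, and of Cyp17a1, Cyp27a1, Cyp2b10, Cyp2c23, Cyp2d9, Cyp2d10, Cyp3a13, Cyp4b1, Cyp4f13 and Cyp4f17 at 30 mg/kg.

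Genes that serve or regulate P450 enzymes were counted from lists. No call of a list gene was followed through the settings that left out libraries. Of 18 tested genes that pass electrons to P450s or make and break down heme, 9 rose and 1 fell at 15 mg/kg against cisplatin, and 7 rose and 1 fell at 30 mg/kg, where 37.5% and 27.9% of all tested genes were called. Against control 11 rose and 0 fell at 15 mg/kg (45.2% of all tested genes called), 9 rose and 0 fell at 30 mg/kg (34.2%), and 3 rose and 0 fell in cisplatin (13.4%). In cisplatin over control, limma voom called 2 genes of this list. Por, the reductase of all microsomal P450s, rose over cisplatin by 0.87 ± 0.23 (edgeR adjusted p = 0.0065) and 0.82 ± 0.23 (edgeR adjusted p = 0.0129) at 15 and 30 mg/kg. Fdx1, the ferredoxin that serves mitochondrial P450s, rose by 0.97 and 0.84 at 15 and 30 mg/kg, while its reductase Fdxr fell by 0.63 and 1.08 at 15 and 30 mg/kg against cisplatin and rose in cisplatin over control by 0.80 ± 0.24 (edgeR adjusted p = 0.0346). Alas1, the rate-limiting first enzyme of heme synthesis, rose by 1.22 ± 0.29 (edgeR adjusted p = 0.0123) in cisplatin over control. The list's median change was 0.53 and 0.64 against cisplatin.

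Of 20 tested receptors and partner factors, 3 rose and 3 fell at 15 mg/kg against cisplatin and 0 rose and 4 fell at 30 mg/kg, with medians of −0.21 and −0.20, shares below those of all tested genes (37.5% and 27.9%). In cisplatin over control 5 rose, namely Ppara (1.69 ± 0.42), Nr1i2 or PXR (1.79 ± 0.43), Nr1i3 or CAR (3.02 ± 0.87), Nr1h4 (1.19 ± 0.31) and Rara (0.72 ± 0.20), and Nr3c1, the glucocorticoid receptor, fell by 1.02 ± 0.25. There edgeR called 13.4% of all tested genes, and of this list DESeq2 called 9 and limma voom 4. Against control 9 rose and 7 fell at 15 mg/kg (45.2% of all tested genes called), and 9 rose and 4 fell at 30 mg/kg (34.2%). Among them, Ppara rose by 1.51 and 1.71 at 15 and 30 mg/kg, Nr1i2 by 1.88 and 1.96, and Ahr fell by 1.42 and 1.05.

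Of 22 other PPARα targets, 8 rose and 0 fell at 15 mg/kg and 6 rose and 0 fell at 30 mg/kg against cisplatin (18.9% and 14.7% of all tested genes rose), 18 rose and 0 fell at each dose against control (23% and 18.6%), and 7 rose and 0 fell in cisplatin over control (8.41%). Their median change over control was 1.50 at 15 mg/kg, 1.58 at 30 mg/kg and 0.80 in cisplatin. Hadha, of the mitochondrial fatty acid oxidation complex, rose against cisplatin by 1.44 ± 0.20 (edgeR adjusted p = 0.000117) and 1.19 ± 0.20 (edgeR adjusted p = 0.000694) at 15 and 30 mg/kg, and Acot1, a fatty acyl-CoA thioesterase, by 1.35 and 1.27 at 15 and 30 mg/kg. Of 11 tested epoxide hydrolases and eicosanoid enzymes, 2 rose at 15 mg/kg and 1 at 30 mg/kg against cisplatin, below the shares of all tested genes, with medians of −0.12 and −0.11. Against control 1 rose and 3 fell at each dose, the 3 being Ptgs1, Ptgs2 and Pla2g4a, which release and oxidise arachidonic acid. Of all tested genes 45.2% and 34.2% were called there, so the count does not set this list apart. Ephx2, the soluble epoxide hydrolase that breaks down the epoxides made by Cyp2j and Cyp2c enzymes, rose over cisplatin by 1.04 ± 0.26 (edgeR adjusted p = 0.00439) and 1.07 ± 0.26 (edgeR adjusted p = 0.00555) at 15 and 30 mg/kg.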

How the data were processed

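Whole-kidney polyA mRNA of 20 mice was sequenced as 150-base paired reads, with 5 biological replicates per group per the labels. The authors deposited counts of reads per gene, and these counts were the values analysed. Per the submitters' processing notes, FastQC, Trimmomatic, HISAT2, StringTie and DESeq2 were used with mm10/GRCm38. Neither the counting program nor its strand setting or annotation is stated (not given in the sources used here), so overlapping and antisense genes could not be told apart. The authors' own comparison columns were not used. In all, 11 gene names in the table read as dates and were left as they are.

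Genes were kept by edgeR's filterByExpr (14858 of 25638), scaled by TMM and tested with the quasi-likelihood F test over the 4 groups together (R 4.3.3, edgeR 4.0.16), with Benjamini-Hochberg adjustment over all tested genes and a threshold of 0.05. Steps were tested on simulated data. DESeq2 1.42.0 and limma 3.58.1 (voom), other scalings, no filter and leaving out libraries were alternatives. Totals ran between 10714532 and 49602115 counts, and the floor of 3 counts covers counting error only.

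The members and gene lists were chosen with earlier results of these data known. Values in every library were given for the 4 tested members with the highest CPM per kilobase, for up to 4 called members with the largest rise and up to 4 with the largest fall in each of 3 comparisons (each 7-HCG dose against cisplatin, and cisplatin against control) at a mean of at least 1 CPM, and for a fixed panel of 10 members. Cyp2j8 and Cyp2b10 fall outside this rule and were added after their values were seen. Replicate numbers come from the sample titles. Promoter sequences are from RefSeq (GRCm38.p6), which matched 71 of 91 members.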

Additional observations from a re-analysis of the deposited data

Results flagged for a closer look

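In 7 of 68 groups of 5 kidneys tested (10.3%), 1 kidney stood apart from the other 4 by Dixon's criterion, which chance alone meets in about 1 of 20 groups of normally distributed values. The levels were taken in CPM without a log, so that rate may not hold here. The groups were those of the tested members chosen by the naming rule, without Cyp2b10 and Cyp2j8. Cyp1a1 had 10.8 CPM in control replicate 5, against 0.766 to 1.54 CPM in the other control kidneys. Cyp1b1 had 202 CPM in cisplatin replicate 9, against 9.23 to 19.5 CPM in the other cisplatin kidneys. Replicate 1 of 7-HCG 30 mg/kg had the lowest Cyp2j9 level, 5.06 CPM against 15.1 to 15.9 CPM, and the highest Cyp4b1 level, 2934 CPM against 771 to 1162 CPM in the other kidneys of that dose. Cyp4a14 had 212 CPM in control replicate 7, against 79.2 to 108 CPM in the other control kidneys. Cyp26b1 had 3.34 CPM in replicate 1 of 7-HCG 15 mg/kg, against 1.44 to 1.94 CPM in the others. Cyp46a1 had 7.19 CPM in control replicate 1, against 1.81 to 2.96 CPM in the other control kidneys.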

How the results depend on the processing

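All P450 calls kept their direction in the 30 alternatives, which leave out the replicate block. The number of P450 genes called in cisplatin against control (14) was the least stable: 6 under library totals, 9 with only the 2 groups compared, 6 without cisplatin replicates 9 and 10, 2 without control replicates 2 and 5, and 0 without these 4 libraries, chosen after seeing the data. For 30 mg/kg against cisplatin (15), it was 9 under library totals and 9 without cisplatin replicates 9 and 10. Without control replicates 2 and 5 it was 15 at 15 mg/kg against control (24) and 12 at 30 mg/kg (22). The cause was not tested. Leaving out 1 library gave 6 to 17 calls in cisplatin against control, with 6 without control replicate 2, 7 without control replicate 5 and 6 without cisplatin replicate 10. It gave 11 to 19 and 13 to 19 for 15 and 30 mg/kg against cisplatin, 19 to 25 and 16 to 25 against control, and 0 to 0 between doses. Apart from the shares printed in the sections above, the share of all tested genes called in each of these fits is not given here. The counts therefore do not set the P450 genes apart.

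Values that were not called and turned sign were Cyp1b1 in cisplatin against control (−0.19 under library totals, −0.41 with voom, −0.99 to 1.23 with 1 library left out, −1.27 without cisplatin replicates 9 and 10, −1.38 without the 4 libraries), Cyp2e1 (−0.44 to 0.095 with 1 library left out), Cyp2j11 (0.10) and Cyp7b1 (0.15) in the same comparison without cisplatin replicates 9 and 10, and Cyp4a10 against cisplatin without cisplatin replicates 9 and 10 (−0.056 and −0.28 at 15 and 30 mg/kg) and without the 4 libraries (−0.082 and −0.27).

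Over 15 same-numbered pairs of kidneys, the correlation of deviations from the group mean was −0.31 to 0.23, with a median of 0.0021 and 3 over 0.1. Pairs with different numbers were not compared, so these values cannot decide whether the numbers mark a pairing or a shared batch. With the replicate number as a block, 0 genes were called in cisplatin against control, 4 at 15 mg/kg and 0 at 30 mg/kg against cisplatin. The block fit is not among the 30 alternatives, and no P450 call at 30 mg/kg against cisplatin held under it. The block turned Cyp1b1 to −0.71, Cyp2e1 to 0.33, Cyp2j11 to 0.24, Cyp2j5 to 0.015 and Cyp7b1 to 0.33 in cisplatin against control, and Cyp7b1 (−0.19) and Cyp4a10 (−0.10) at 15 mg/kg and Cyp4a10 (−0.42) at 30 mg/kg against cisplatin. Genes near the floor of 3 counts, such as Cyp2b10 and Cyp2j8, are limited by depth.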
